A study of Rattus norvegicus with 4 samples.

Results

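The genes described here encode subunits of respiratory complexes II, III, IV and V, together with cytochrome c, in rat left ventricle. They were taken by symbol, as genes whose names begin with Cox4 to Cox8, Uqcr or Atp5, and as Sdha, Sdhb, Sdhc, Sdhd, Cyc1 and Cycs. The expression table held 46 such genes among 16580 distinct symbols and 22861 loci. Of the 46, 4 belong to complex II, 8 to complex III, 1 is cytochrome c, 15 belong to complex IV and 14 to complex V. Another 4 carry a matching symbol only. They are Cox4nb, named Emc8 by RefSeq, which encodes a subunit of an endoplasmic reticulum membrane complex, and Cox6c-ps1, a pseudogene by its symbol. The others are Atp5s and Atp5sl, which RefSeq names Dmac2l and Dmac2.

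Both groups were male Sprague Dawley rats with 5/6 nephrectomy (5/6Nx), an operation that removes most kidney tissue as a model of chronic kidney disease, performed at 10 weeks of age, and all were kept on 0.4% Dyets chow. A locked nucleic acid oligonucleotide, a short strand of stabilised nucleotides that binds a complementary RNA, was infused into the jugular vein at 1 mg/kg in 3 daily doses, first in week 1 after the operation and once more in week 4. The anti-miR-21 group received a strand against miR-21-5p and the anti-scr group a scrambled strand, and heart tissue was taken in week 7. Each group had 2 libraries, each from pooled RNA of 2 to 3 rats. No rats without 5/6Nx were part of the comparison, so it shows the inhibitor against the control within operated animals. The inhibited miRNA is printed with its seed, bases 2 to 8, in capitals, because the seed is the stretch through which a miRNA mainly recognises its targets (RefSeq, GRCr8, chr10:71902653-71902674, minus strand).
rno-miR-21-5p: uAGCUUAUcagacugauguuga

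The respiratory chain passes electrons from fuels to oxygen and stores the energy as a proton gradient across the inner mitochondrial membrane. Complex II (succinate dehydrogenase) takes electrons from succinate, complex III passes them to cytochrome c, complex IV (cytochrome c oxidase) passes them to oxygen, and complex V (ATP synthase) uses the gradient to make ATP. Ventricular muscle depends on this route for most of its ATP, and several complex IV subunits exist in a heart and skeletal muscle form and a widely expressed form. Subunits of complexes III, IV and V that are encoded in mitochondrial DNA were not analysed here, and neither were nuclear subunits outside the 46 genes.

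Reads per library ranged from 47826514 to 54952098, and 94.0% to 94.4% of them mapped. The authors' deposited table gives 1 FPKM value (a transcript level scaled for transcript length and sequencing depth) per group, so no standard deviation between pools can be given. The spread between pools enters only through the deposited p and q values of Cuffdiff, the authors' test. A gene is called here where its deposited q lies under 0.05. A gene is counted as measured where the mean of its 2 group values is at least 1 FPKM and neither is 0. A log2 difference is the log2 FPKM with anti-miR-21 minus the log2 FPKM with anti-scr, so negative values mean lower with anti-miR-21.

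Transcripts of these complexes were mostly lower in value with anti-miR-21, and 5 of them fell by the authors' test. The 5 were Uqcr11 of complex III, Cox4i1 and Cox6a2 of complex IV, and Atp5d and Atp5g1 of complex V. No member was called higher at the locus with its highest mean; another locus of Atp5f1, described with complex V, was called higher, so that counting any locus gives 6 called members. In the authors' deposited table, 0.629% of the 12876 tested loci were called lower and 0.186% were called higher. Of the 44 tested members, 5 (11.4%) were called lower. The members are abundant, with 38 at a mean of at least 100 FPKM. Among all named genes at that level 2.78% were called lower, beside 13.2% of the members there. At 1000 FPKM or more the shares were 3.23% and 11.5%. These named genes include the members, which made up 3 of the 4 called lower at 1000 FPKM or more. At an unadjusted p under 0.05, 13 members were lower and 1 higher in the authors' deposited table, against 6.11% of all tested loci lower and 3.18% higher. Of the tested members 29.5% were lower at that p. Among named genes at a mean of at least 100 FPKM 12.5% were lower, beside 34.2% of the members at that level. At 1000 or more it was 15.3%, beside 23.1% of the members.

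By value alone, 36 of 44 measured members were lower with anti-miR-21 and 8 were higher. Their median log2 difference was -0.21, against 0.01 over all 9871 measured named genes, of which 48.3% were lower. These genes are among the most abundant in the tissue. Measured members summed to 82997 FPKM with anti-scr, 10.6% of the FPKM of all named genes, and to 72772 with anti-miR-21, or 10.0%. Of the 124 named genes with a mean of at least 1000 FPKM, 26 were members. Those 26 had a median of -0.19 with 20 lower, beside -0.07 and 63.7% lower over the 124. The 2 members that were not measured were the testis-type subunit gene Cox8c, at 0.528 FPKM under anti-scr and 0.697 under anti-miR-21, and Cox6c-ps1, listed at 0 in both groups.

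**Figure D1:**
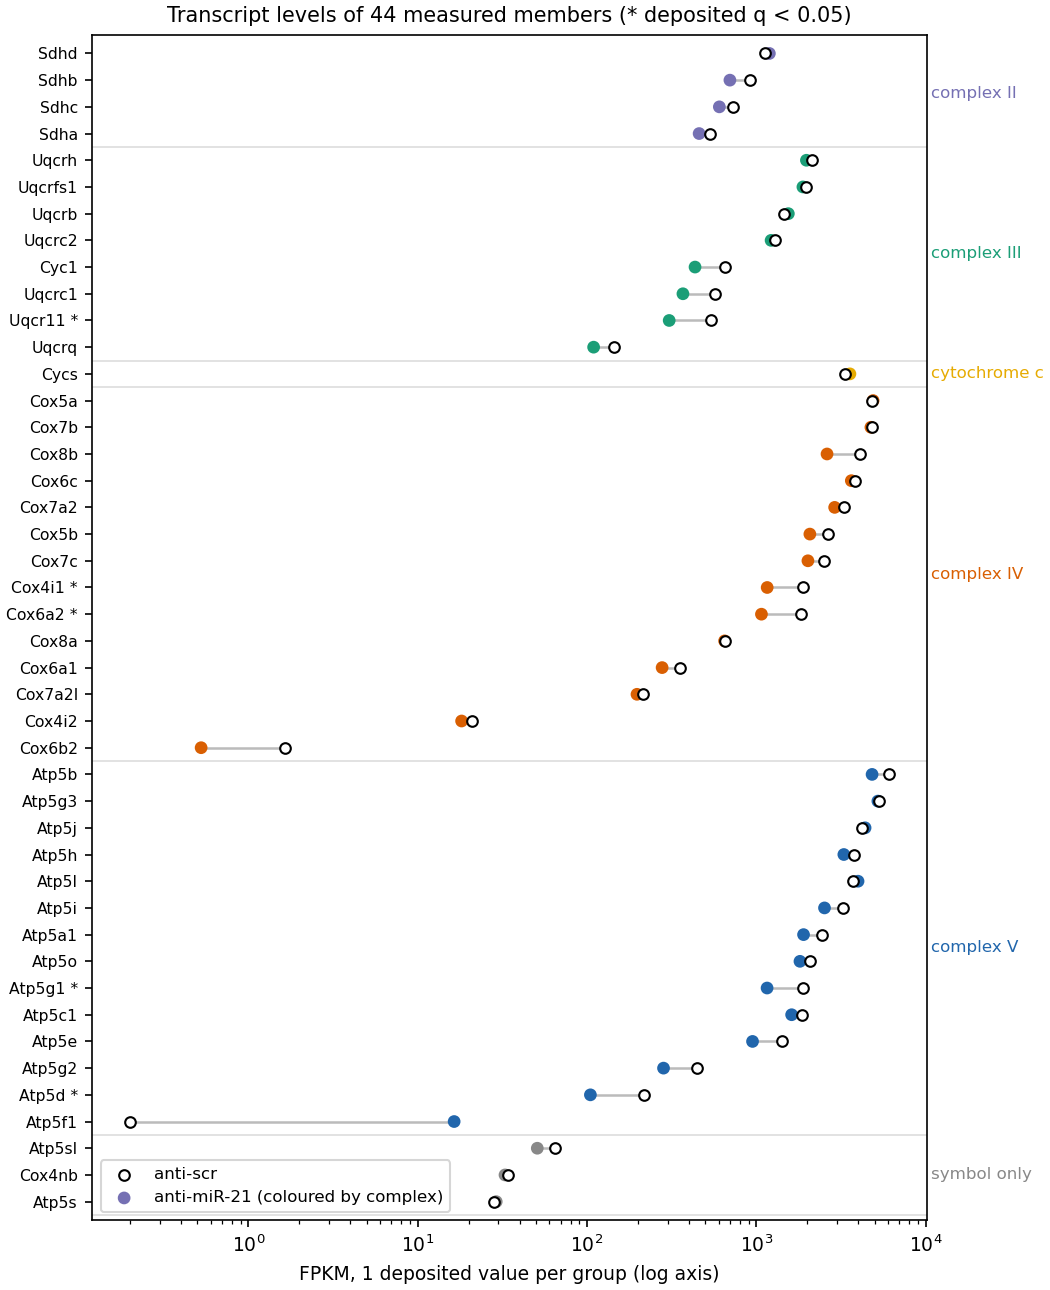
Each row is 1 measured member, grouped by complex, with FPKM on a log axis; the open circle is the anti-scr group and the filled circle the anti-miR-21 group, 1 deposited value each, and a star marks a deposited q under 0.05. Filled circles lie left of open ones in 36 of 44 rows, and the starred genes are Uqcr11, Cox4i1, Cox6a2, Atp5d and Atp5g1.

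In complex II none of the 4 subunit genes was called by Cuffdiff, and 1 was lower and 0 higher at an unadjusted p under 0.05 in the authors' deposited table. Sdhb, the iron-sulfur subunit, stood at 910.9 FPKM under anti-scr and 697.9 under anti-miR-21 (log2 difference -0.38; p = 0.0388 and q = 0.505 in the authors' deposited table). Sdha, the flavoprotein that oxidises succinate, stood at 535.0 and 459.1 FPKM (-0.22). Sdhc and Sdhd anchor the enzyme in the membrane. Sdhc was lower in value, at 729.1 and 604.4 FPKM (-0.27), whereas Sdhd, the most abundant of the 4, was slightly higher, at 1119 and 1193 FPKM (0.09; p = 0.629 in the authors' deposited table). The median of the 4 was -0.25.

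In complex III, Uqcr11, a small accessory subunit, fell from 539.4 to 305.6 FPKM, or to 56.7% of the anti-scr level (log2 difference -0.82; p = 0.0001 and q = 0.0211 in the authors' deposited table, Cuffdiff). The genes of 3 other subunits had an unadjusted p under 0.05 without a q under 0.05. Uqcrc1, which encodes core protein 1, stood at 569.7 and 368.4 FPKM (-0.63; p = 0.00085 and q = 0.0771 in the authors' deposited table). Cyc1, which encodes cytochrome c1, the subunit that hands electrons to cytochrome c, stood at 655.1 and 434.3 FPKM (-0.59; p = 0.00295 and q = 0.160 in the authors' deposited table). Uqcrq, a small membrane subunit, stood at 145.1 and 109.4 FPKM (-0.41; p = 0.0337 and q = 0.477 in the authors' deposited table).

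The more abundant complex III genes differed less in value. Uqcrh, the hinge protein and the most abundant of the 8, stood at 2144 and 1975 FPKM (-0.12; p = 0.522 and q = 0.918 in the authors' deposited table). Uqcrfs1, the Rieske iron-sulfur protein, stood at 1960 and 1883 FPKM (-0.06), and Uqcrc2, core protein 2, at 1285 and 1222 FPKM (-0.07). Uqcrb was the one member of the complex with a higher value, at 1461 and 1544 FPKM (0.08), but its locus was given as chromosome 7, 71297359 to 71533937 (rn5), a long stretch for this gene, so its value is uncertain. The 2 core proteins thus stood at -0.63 and -0.07; whether they differ from each other was not tested. Cycs, the gene of the mobile carrier cytochrome c, was higher in value, at 3321 and 3568 FPKM (0.10; p = 0.609 and q = 0.945 in the authors' deposited table).

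Complex IV had 2 called genes and 13 of 14 measured members lower in value, with a median of -0.26. Cox6a2, the heart and skeletal muscle form of subunit 6A, fell from 1826 to 1071 FPKM, or to 58.7% (log2 difference -0.77; p = 0.00015 and q = 0.0261 in the authors' deposited table, Cuffdiff). Cox4i1, the main form of subunit 4, which takes part in regulating the enzyme by ATP, fell from 1877 to 1158 FPKM, or to 61.7% (-0.70; p = 0.00035 and q = 0.0451 in the authors' deposited table). Just outside the threshold was Cox8b, the muscle form of subunit 8, at 4112 and 2614 FPKM (-0.65; p = 0.0005 and q = 0.0550 in the authors' deposited table). Cox5b, which binds zinc, stood at 2655 and 2070 FPKM (-0.36; p = 0.0496 and q = 0.537 in the authors' deposited table).

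The other complex IV genes did not reach a p under 0.05. Cox7c stood at 2511 and 2016 FPKM (-0.32) and Cox6c at 3838 and 3637 FPKM (-0.08). The most abundant member of the complex, Cox5a, was the one with a higher value, at 4821 and 4889 FPKM (0.02; p = 0.917 and q = 0.995 in the authors' deposited table). Cox7b stood at 4785 and 4746 FPKM (-0.01; p = 0.966 and q = 0.995 in the authors' deposited table), but its locus was given as X, 55629810 to 57548519 (rn5), a stretch of megabases, so its value is uncertain. The testis-type gene Cox6b2 was near the detection limit, at 1.64 and 0.526 FPKM (-1.64; p = 0.151 and q = 0.705 in the authors' deposited table).

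For both complex IV subunits measured here in a muscle and a widely expressed form, 6A and 8, the muscle form was the more abundant and had the larger difference in value. For subunit 6A, Cox6a1 stood at 353.8 FPKM under anti-scr and 277.6 under anti-miR-21 (-0.35; p = 0.0724 and q = 0.598 in the authors' deposited table), beside -0.77 for Cox6a2. The share of Cox6a2 in the sum of both was 83.8% under anti-scr and 79.4% under anti-miR-21. For subunit 8, Cox8a stood at 653.3 and 649.2 FPKM (-0.01; p = 0.963 and q = 0.995 in the authors' deposited table), beside -0.65 for Cox8b, whose share was 86.3% and 80.1%. For subunit 4, the lung-type form Cox4i2, a minor form here, stood at 21.0 and 18.2 FPKM (-0.21; p = 0.438 and q = 0.892 in the authors' deposited table), and Cox4i1 made up 98.9% and 98.5% of the pair. For subunit 7A, the widely expressed Cox7a2 stood at 3291 and 2899 FPKM (-0.18; p = 0.328 and q = 0.829 in the authors' deposited table). The related Cox7a2l, which acts in joining complexes III and IV into supercomplexes, stood at 214.1 and 197.2 FPKM (-0.12; p = 0.518 and q = 0.917 in the authors' deposited table). No values were found under the symbols Cox7a1, the muscle form of subunit 7A, or Cox6b1 of subunit 6B. The differences between forms were not tested, since the table has no values per library.

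**Figure D2:**
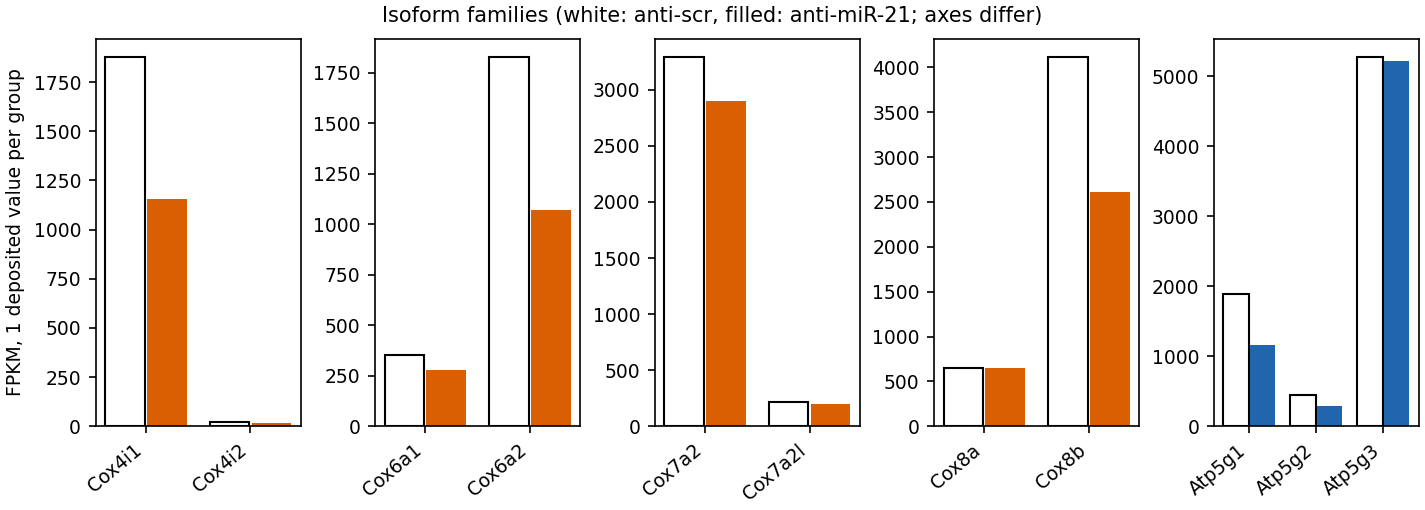
Bars show FPKM, 1 deposited value per group, for forms of subunits 4, 6A, 7A and 8 of complex IV and for the c subunit genes of complex V; white bars are anti-scr, filled bars anti-miR-21, and each panel has its own axis from 0. Cox4i1, Cox6a2, Cox8b, Atp5g1 and Atp5g2 show the wide gaps, while Cox8a and Atp5g3 have bars of nearly equal height.

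The 250 bases before the annotated start are printed for the called complex IV genes and for the subunit 8 pair, because Cox8a and Cox8b encode forms of 1 subunit but stood at -0.01 and -0.65 (RefSeq, GRCr8, in the direction of the gene). Capitals mark letters of 6 motifs, searched on both strands of these bases and of the 50 bases after the start: GCATGCGC (nuclear respiratory factor 1, NRF1), CCGGAAG (GABP, also called NRF-2), AAGATGGC (YY1), AAGGTCA (estrogen-related receptors, ERR), GGGCGG (Sp1) and TATAAA (the TATA box). NRF1, GABP, YY1 and the estrogen-related receptors are known regulators of nuclear genes for respiratory subunits. The windows are chr19:65630133-65630382 on the plus strand for Cox4i1 and, on the minus strand, chr1:192219717-192219966 for Cox6a2, chr1:205408274-205408523 for Cox8b and chr1:213833624-213833873 for Cox8a.
Cox4i1: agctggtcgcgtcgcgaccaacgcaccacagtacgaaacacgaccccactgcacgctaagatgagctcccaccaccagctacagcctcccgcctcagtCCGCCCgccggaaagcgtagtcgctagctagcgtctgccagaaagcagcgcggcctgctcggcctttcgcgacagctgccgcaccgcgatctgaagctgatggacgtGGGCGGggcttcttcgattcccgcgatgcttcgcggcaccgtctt
Cox6a2: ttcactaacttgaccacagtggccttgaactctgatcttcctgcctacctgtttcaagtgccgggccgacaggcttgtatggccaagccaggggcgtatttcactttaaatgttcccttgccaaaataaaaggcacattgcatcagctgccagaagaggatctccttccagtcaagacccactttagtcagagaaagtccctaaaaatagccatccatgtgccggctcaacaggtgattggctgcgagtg
Cox8b: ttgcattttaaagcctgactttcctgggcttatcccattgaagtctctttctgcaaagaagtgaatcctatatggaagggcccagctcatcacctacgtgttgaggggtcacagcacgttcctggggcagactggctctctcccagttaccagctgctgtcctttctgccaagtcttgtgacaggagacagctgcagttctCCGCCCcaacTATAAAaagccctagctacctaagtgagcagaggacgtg
Cox8a: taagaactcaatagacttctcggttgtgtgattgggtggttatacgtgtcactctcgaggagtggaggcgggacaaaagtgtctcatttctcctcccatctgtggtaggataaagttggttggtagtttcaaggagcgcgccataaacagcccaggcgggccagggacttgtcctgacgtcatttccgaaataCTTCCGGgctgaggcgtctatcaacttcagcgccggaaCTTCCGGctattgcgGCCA

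The Cox6a2 window held none of the 6 motifs as spelled. The Cox8b window held a TATAAA beginning 39 bases before the start and the Sp1 letters beginning 49 bases before it. The Cox8a window held the GABP letters at 57 and 19 bases before the start, and a YY1 match that begins 4 bases before the start and runs past it, so only its first letters are printed; the ERR letters began 11 bases after the start. In Cox4i1 the Sp1 letters began at 152 and 45 bases before the start, and the GABP letters were found on the opposite strand 3 and 23 bases after it, in the stretch chr19:65630386-65630412, which is printed here.
Cox4i1, GABP letters: CTTCCGGtgcgggacccgctCTTCCGG

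Cox4i1 shares this stretch of the genome with Cox4nb (Emc8), which is transcribed away from it from a start 148 bases distant (GRCr8). The deposited loci of the pair lay 146 bases apart on chromosome 19 of rn5, with Cox4i1 at 64965334 to 64971578. Cox4nb stood at 34.1 FPKM under anti-scr and 32.8 under anti-miR-21 (-0.06; p = 0.817 in the authors' deposited table), beside -0.70 for Cox4i1. The difference between the neighbours was not tested. Of the other genes matched by symbol only, Atp5s stood at 28.2 and 29.1 FPKM (0.05) and Atp5sl at 64.6 and 50.8 FPKM (-0.34).

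In complex V, Atp5d and Atp5g1 fell, and all 5 genes of the F1 catalytic head were lower in value. Atp5d, which encodes the delta subunit of the central stalk, fell from 218.2 to 104.7 FPKM, or to 48.0% of the anti-scr level (log2 difference -1.06; p = 5e-05 and q = 0.0131 in the authors' deposited table, Cuffdiff). These are the lowest p and q in that table, and other loci share them, Ndufa11, Rps15 and Myl3 among them. Atp5e, the epsilon subunit of the same stalk, stood at 1408 and 949.1 FPKM (-0.57; p = 0.0028 and q = 0.156 in the authors' deposited table). Atp5c1, the gamma subunit that turns inside the head, stood at 1856 and 1615 FPKM (-0.20).

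The head's ring is built of alpha and beta subunits, and beta carries the catalytic sites. Atp5b, the beta subunit and the most abundant member of all 46, stood at 6052 FPKM under anti-scr and 4822 under anti-miR-21 (-0.33; p = 0.153 and q = 0.706 in the authors' deposited table). Atp5a1, the alpha subunit, stood at 2434 and 1899 FPKM (-0.36; p = 0.0781 in the authors' deposited table). The 5 head genes summed to 11967 and 9390 FPKM, 78.5% of the anti-scr value, and their median was -0.36.

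The c subunit, which forms the rotating ring in the membrane, is encoded by 3 genes whose mature proteins are identical. Atp5g1 fell from 1884 FPKM under anti-scr to 1157 under anti-miR-21, or to 61.4% (-0.70; p = 0.0001 and q = 0.0211 in the authors' deposited table, Cuffdiff). Atp5g2 lay outside the threshold at 447.0 and 283.0 FPKM (-0.66; p = 0.0008 and q = 0.0746 in the authors' deposited table). Atp5g3, by far the most abundant, stood at 5269 and 5219 FPKM (-0.01; p = 0.942 and q = 0.995 in the authors' deposited table). The sum of the 3 therefore stood at 7600 and 6658 FPKM, 87.6% of the anti-scr value, and the share of Atp5g3 in it was 69.3% under anti-scr and 78.4% under anti-miR-21. Reads shared between the 3 genes, or with processed pseudogenes, would be divided by a model, so the split between them is less certain than the sum.

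The same windows are printed for the c subunit genes and for Atp5d, since Atp5g1 and Atp5g3 encode the same mature protein but stood at -0.70 and -0.01. RefSeq names them Atp5mc1, Atp5mc2, Atp5mc3 and Atp5f1d. All lie on the minus strand of GRCr8, at chr10:81523346-81523595 for Atp5g1, chr7:135678219-135678468 for Atp5g2, chr3:79220665-79220914 for Atp5g3 and chr7:10214351-10214600 for Atp5d.
Atp5g1: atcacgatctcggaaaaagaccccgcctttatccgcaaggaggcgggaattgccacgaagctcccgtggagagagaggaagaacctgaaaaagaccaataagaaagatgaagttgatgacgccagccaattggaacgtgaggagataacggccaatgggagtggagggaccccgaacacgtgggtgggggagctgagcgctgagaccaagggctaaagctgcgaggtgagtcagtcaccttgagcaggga
Atp5g2: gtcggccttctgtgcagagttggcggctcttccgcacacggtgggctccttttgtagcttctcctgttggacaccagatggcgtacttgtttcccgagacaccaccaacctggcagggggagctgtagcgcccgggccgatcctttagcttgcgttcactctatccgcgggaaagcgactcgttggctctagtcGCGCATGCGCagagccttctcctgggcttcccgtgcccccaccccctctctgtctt
Atp5g3: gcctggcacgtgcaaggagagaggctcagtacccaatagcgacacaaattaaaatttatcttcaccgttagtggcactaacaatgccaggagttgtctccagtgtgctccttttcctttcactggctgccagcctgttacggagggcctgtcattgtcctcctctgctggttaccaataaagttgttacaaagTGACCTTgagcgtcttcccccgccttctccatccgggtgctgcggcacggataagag
Atp5d: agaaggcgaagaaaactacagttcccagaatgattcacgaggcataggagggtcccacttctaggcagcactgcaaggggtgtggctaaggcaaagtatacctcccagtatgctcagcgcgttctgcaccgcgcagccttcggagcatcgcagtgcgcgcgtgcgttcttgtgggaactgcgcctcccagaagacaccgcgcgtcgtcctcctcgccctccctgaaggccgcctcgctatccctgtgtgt
None of the 6 motifs as spelled stood in the Atp5g1 and Atp5d windows. Atp5g2 had the NRF1 letters on both strands, overlapping in a palindrome that begins 56 bases before the start, and Atp5g3 had the ERR letters on the opposite strand, beginning 57 bases before it.

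Of the other 6 complex V genes, which build the stator and the membrane part, 3 were lower in value and 3 higher, counting Atp5f1. Atp5i (subunit e) stood at 3244 and 2525 FPKM (-0.36; p = 0.0524 in the authors' deposited table), Atp5h (subunit d) at 3749 and 3285 (-0.19) and Atp5o, which links the head to the stator, at 2063 and 1809 (-0.19). Atp5l (subunit g) was higher in value, at 3724 and 3984 FPKM (0.10), as was Atp5j (coupling factor 6), at 4189 and 4384 FPKM (0.07). The Atp5j locus was given as chromosome 11, 27864256 to 27950063 (rn5), again a long stretch, so its value is uncertain.

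Values of Atp5f1, the gene of stator subunit b, are uncertain. It had 3 loci on chromosome 2. The locus with the highest mean stood at 0.201 FPKM under anti-scr and 16.4 under anti-miR-21 (p = 0.0303 and q = 0.454 in the authors' deposited table). Another was listed at 0 and 15.9 FPKM and was called (q = 0.0131), and the third was listed at 0 in both groups. The other 13 genes of the complex stood between 218.2 and 6052 FPKM with anti-scr, so no weight is put on these low values. With Atp5f1 left out, the complex V median was -0.33 and its mean -0.34; with it, the median was -0.26 and the mean turned to 0.13.

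**Figure D3:**
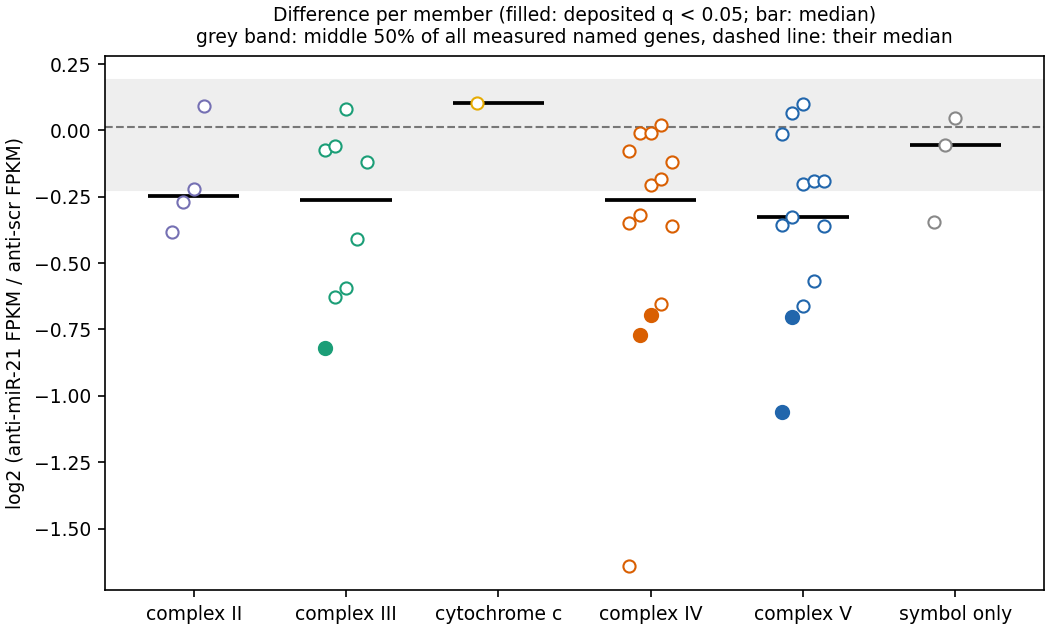
Points show the log2 difference (anti-miR-21 minus anti-scr) of each measured member, by complex, without Atp5f1; filled points have a deposited q under 0.05 and black bars are medians. The grey band holds the middle of all measured named genes, from -0.22 to 0.19, and the 5 filled points lie between -1.06 and -0.70, all under it.

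Genes listed as assembling, regulating or binding to these complexes went both ways in value, with log2 differences from -0.55 to 0.43. The list is not strictly separate from the members. It shares Cox4nb with them, which encodes a subunit of an endoplasmic reticulum membrane complex and has no such role by that name. The counts and the median of the list include Cox4nb. Of the 49 genes listed, 27 were in the table and none was called by Cuffdiff. At an unadjusted p under 0.05 in the authors' deposited table, 2 of 26 tested genes (7.69%) were lower and 1 higher. Over all tested loci 6.11% were lower and 3.18% higher at that p. The median of this list was -0.06, with 15 of 26 measured genes lower. The most abundant were Usmg5, a small protein bound to ATP synthase, at 3716 and 4131 FPKM (0.15), and the copper chaperone gene Cox17, at 494.8 and 417.0 FPKM (-0.25). The 3 with a p under 0.05, named after their values were seen, were Oxa1l, which inserts proteins into the inner membrane, at -0.55, the respiratory supercomplex gene Higd2a at -0.43 and the complex IV assembly gene Cmc1 at 0.43.

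Of 26 genes that feed electrons into the chain or carry its substrates, 25 were in the table and 1 (4%) was called lower. Over all tested loci 0.629% were called lower, and 2.78% among named genes at a mean of at least 100 FPKM. The called gene was Etfb, the beta subunit of the electron transfer flavoprotein of fat oxidation, which fell from 326.8 FPKM under anti-scr to 199.8 under anti-miR-21 (log2 difference -0.71; q = 0.0261 by the authors' Cuffdiff test, from their deposited table). The median of the list was -0.10, with 16 of 25 lower. At an unadjusted p under 0.05 there were also Ckmt2, the mitochondrial creatine kinase of muscle, at 1924 and 1316 FPKM (-0.55), and Coq2, an enzyme of coenzyme Q synthesis, at 37.2 and 27.0 FPKM (-0.46), both named after their values were seen.

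Subunit genes of complex I, the other entry point for electrons, were also mostly lower in value. Of 33, 5 (15.2%) were called lower in the authors' deposited table. The share was 0.629% over all tested loci and 2.78% among named genes at a mean of at least 100 FPKM. By value 28 of the 33 were lower, with a median of -0.15. The called genes were Ndufs7 (-1.43), Ndufa11 (341.9 and 170.7 FPKM), Ndufa7 (-0.78), Ndufs8 (-0.74) and Ndufv1 (-0.69). Genes of mitochondrial ribosomal proteins, which translate the subunits encoded in mitochondrial DNA, had a median of -0.12. Of the 64 measured, 49 were lower in value, and none was called by Cuffdiff. At an unadjusted p under 0.05 in the authors' deposited table, 8 (12.5%) were lower and 0 higher. The share lower at that p was 6.11% over all tested loci and 12.5% among named genes at a mean of at least 100 FPKM. The difference between complexes II to V and either set was not tested.

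The difference in value went with the number of genes nearby, with the length of the locus and, in the members, with the level. The number of named genes with midpoints within 500 kb was counted from the deposited rn5 positions, and genes were put into 5 groups of about equal size by this count. In the group with 22 or more such neighbours, the 16 members had a median of -0.47 with 14 lower and 3 called, beside -0.24 and 76.7% lower over all 2065 genes there. In the group with fewer than 5 neighbours, the 8 members had a median of -0.09 and none called, beside 0.15 and 24.5% lower over all 1907. The members' median lay under that of all genes in each of the 5 groups. How many of all genes in each group were called was not counted, so the called members there have no like share beside them. Over all tested loci 0.629% were called lower. Across 43 members without Atp5f1, Spearman's rho between the number of neighbours and the log2 difference was -0.46, against -0.44 across 9661 other named genes; these points share the same libraries, and genes are not independent replicates. With the length of the locus rho was 0.48 in the members, against 0.24 in the other genes, and with the mean FPKM 0.37, against -0.02. With the median log2 difference of the measured genes within 500 kb it was 0.53 across 42 members, against 0.46 in the other genes.

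**Figure D4:**
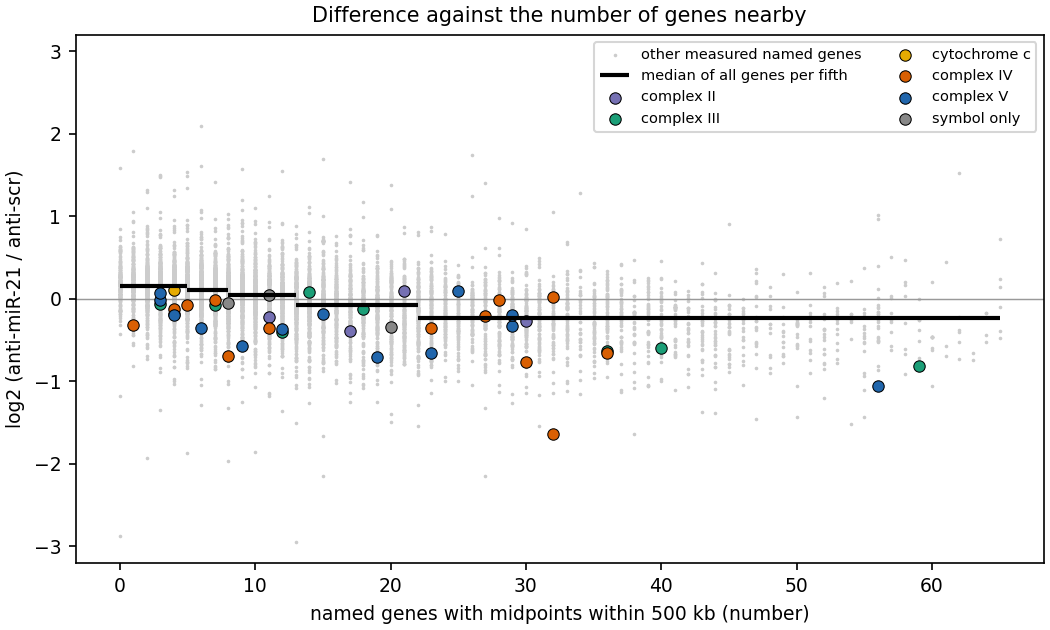
The horizontal axis is the number of named genes with midpoints within 500 kb, the vertical axis the log2 difference; grey points are measured named genes, coloured points the members without Atp5f1, and black lines the median of all genes in each of the 5 groups. The black lines step down from 0.15 to -0.24, and Atp5d and Uqcr11 are the members farthest to the right.

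Atp5d and Uqcr11, the called members with the largest differences, lie 255 kb apart on chromosome 7 of rn5. Atp5d stands at 12596908 to 12600688 and Uqcr11 at 12341161 to 12345892. Of 36 other measured named genes within 500 kb of Atp5d, 35 were lower in value, with a median of -0.53, and 6 were called in the authors' deposited table. The 6 were Uqcr11, the complex I gene Ndufs7, the ribosomal protein gene Rps15 (-1.05), Csnk1g2 (-0.90), Mbd3 (-0.91) and Cdc34 (-0.77). Over all tested loci 0.629% were called lower, and of all measured named genes with 22 or more neighbours 76.7% were lower in value. Some of the 36 share a locus and so are not separate measurements. Of the measured genes on either side of Atp5d, Midn stood at -0.08 and Stk11 at -0.57 (p = 0.0136 in the authors' deposited table). For the other called members the surroundings differed: 15 of 23 measured neighbours of Cox6a2 were lower (median -0.16, none called), 7 of 8 of Atp5g1 (-0.10, 1 called) and 5 of 5 of Cox4i1 (-0.13, none called). With Atp5d and Uqcr11 left out, 3 members were called and the median was -0.20. The part of position in the members' differences was not tested.

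**Figure D5:**
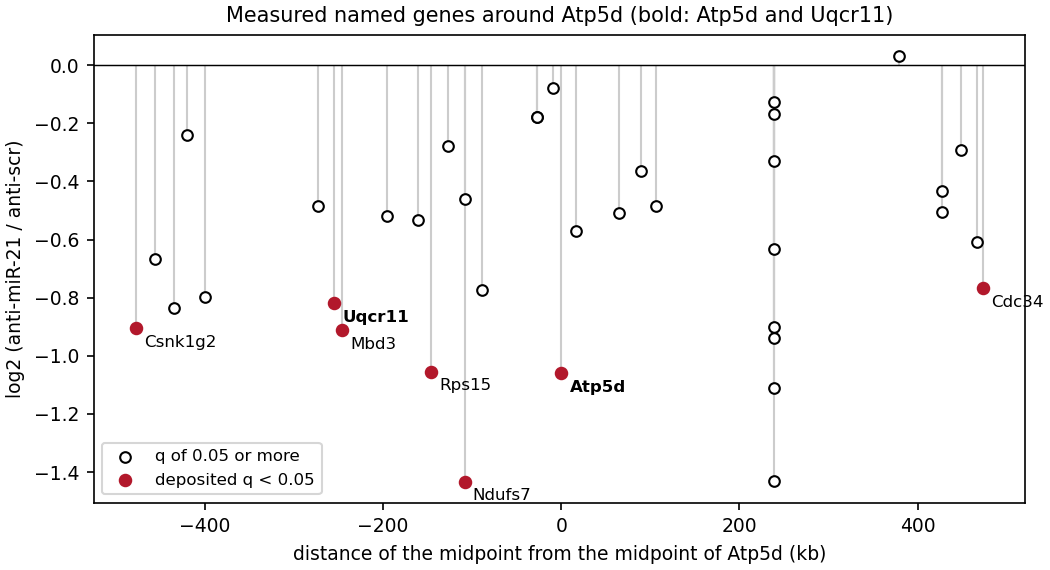
Each stem is a measured named gene, placed by the distance of its midpoint from that of Atp5d in kb, with its log2 difference on the vertical axis; red points have a deposited q under 0.05. All but 1 of the stems point down, and the neighbour Ndufs7 reaches lower than Atp5d.

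RefSeq promoter windows, 250 bases before to 50 after the start, were found for 36 of the 44 measured members, and motifs of known respiratory regulators were counted in them. The GABP letters stood in 14 (38.9%) of them, against 18.6% of 7894 windows of measured protein-coding genes and 11.2% of all 19005 windows. The ERR letters stood in 7 (19.4%), against 2.65% and 3.70%, the NRF1 letters in 7 (19.4%), against 5.22% and 3.23%, and the YY1 letters in 6 (16.7%), against 5.92% and 3.92%. The Sp1 letters stood in 15 (41.7%) of the member windows and in 62.3% of those of measured genes, and the TATA box was found in 2, Cox8b and Atp5l. The windows of Cox4i1 and Cox4nb overlap, and the GABP and Sp1 letters described above for Cox4i1 lie in both. The same letters therefore count for both genes in the GABP and Sp1 counts, and Cox4nb is no respiratory subunit gene. A match of letters is a description of these windows and no test was made of the shares.

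The median log2 difference was -0.36 in the 7 members with the NRF1 letters and -0.20 in the others. It was -0.01 in the 7 with the ERR letters, which are Sdhd, Uqcrq, Cox8a, Atp5a1, Atp5e, Atp5g3 and Atp5l, and -0.22 in the others. It was -0.15 in the 14 with the GABP letters and -0.25 in the others. For the YY1 letters the medians were -0.23 with and -0.21 without, for the Sp1 letters -0.18 and -0.22. For the TATA box, in 2 members, they were -0.28 and -0.21. Members with the NRF1 letters ran from -0.66 (Atp5g2) to 0.10 (Cycs), and those with the ERR letters from -0.57 (Atp5e) to 0.10 (Atp5l). None of these differences between medians was tested. The share of G and C in the windows did not order the members. Spearman's rho between this share and the log2 difference was 0.00 across 35 members without Atp5f1 and -0.02 across 7911 named genes. With the number of CG pairs in the window, rho was 0.19 and -0.005 across the same genes.

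Markers of some of the listed cell types differed in value between the groups. Of 9 genes in the table that were listed as ventricular cardiomyocyte markers, 8 were lower in value with anti-miR-21. Myl3, the ventricular essential light chain, was called, at 5253 and 3000 FPKM (-0.81). The 9 summed to 100086 FPKM under anti-scr and 79287 under anti-miR-21, and the light chain gene Myl2 was at 39354 and 30217. The 9 listed genes were thus abundant in both groups. All 4 atrial cardiomyocyte markers were higher in value, from 1813 to 2729 FPKM in sum, and Sln was called, at 50.3 and 119.3 FPKM. All 7 measured fibroblast markers were higher in value, summing to 2012 and 2634 FPKM, and Postn was called, while Col1a2 was listed at 0.0123 and 0. Of 9 macrophage markers 7 were higher in value, with none called by Cuffdiff and 2 higher at an unadjusted p under 0.05. Of 4 endothelial markers 3 were lower in value, and of 5 mural markers 3. Both of these lists had a median of -0.06, with 0 at an unadjusted p under 0.05 by Cuffdiff. The 2 erythroid markers were higher in value, and of 2 measured adipocyte markers 1 was lower and 1 higher. In bulk tissue, fewer cardiomyocytes and less RNA per cardiomyocyte cannot be told apart, and the part of cell makeup in the members' differences was not tested. Cox6a2 and Cox8b are also expressed in skeletal muscle and brown fat; of the 6 skeletal muscle markers, Tnnt3 stood at 3.78 FPKM under anti-scr and 5.12 under anti-miR-21, Tnni2 at 0.501 and 0.971, and Myh1, Myh2, Myh4 and Actn3 reached at most 0.110 in either group. The brown fat gene Ucp1 was listed at 0 and 0.0527 FPKM.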

How the data were processed

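Left ventricle RNA of 2 anti-miR-21 and 2 anti-scr libraries, each a pool, was compared. The authors deposited FPKM values, 1 per locus and group, with p and q values per locus. The submitters' processing notes name TopHat2 2.0.10, Cufflinks 2.0.10, Cuffdiff and cutadapt, and the build rn5; their options and annotation are not given in the sources used here. The authors also deposited reads per library with the percent of mapped reads. No values per library were given, so the planned fit was replaced by the deposited q, and counting intervals could not be computed. In FPKM, a change of a few abundant transcripts shifts all values. Cells of 97 loci with several symbols stood shifted and were realigned within a tolerance of 0.002 on the log2 scale; none held a member. Where a gene had several loci, the one with the highest mean FPKM was used, which concerned Atp5f1. Log2 differences were computed with Python 3.11.15, numpy 2.4.6 and pandas 2.3.3 without a pseudocount, and the realignment and Benjamini-Hochberg steps were tested on simulated data. All 46 symbols matched RefSeq (GRCr8), used for names and sequences only. Values in full are given for called members, the most abundant of each complex and tissue isoforms, and elsewhere for up to 3 called or 2 most abundant genes per list. Other genes were named after their values were seen. Members, lists and motifs were chosen with earlier results of these data known. Nothing in the labels ties the pools to separate litters or days. The p-values rest on 2 pools per group, and how Cuffdiff modelled the spread between pools is not given.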

Additional observations from a re-analysis of the deposited data

How the results depend on the processing

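The number of members called, 5, fell to 0 at a deposited q under 0.01 and rose to 8 at a q under 0.10, all lower, and to 14 at an unadjusted p under 0.05, of which 13 were lower. The lowest q of any locus was 0.0131, so no locus could pass 0.01. At that threshold complex I also had 0 called genes instead of 5, and the electron supply list 0 instead of 1. At an unadjusted p under 0.05 the supply list had 3, the assembly list 3 and the mitochondrial ribosome list 8. Without the 2 members that have more than 50 named genes within 500 kb (Atp5d and Uqcr11), 3 members were called; this alternative was chosen after seeing the data. The median difference of the members, -0.21, was -0.16 as a mean, which Atp5f1 raises, and -0.29 without the 4 members whose locus spans over 50 kb, also chosen after seeing the data. Between 34 and 36 members were lower in value under each alternative run. None of these counts or medians changed direction, but the mean of complex V alone did, from -0.34 without Atp5f1 to 0.13 with it. Counting a gene as called where any of its loci is called, chosen after seeing the data, gave 6 members, 5 lower and 1 higher. No paired analysis was possible because the table has no values per library; for the same reason no library could be left out in turn. Depth per gene is unknown, so low genes such as Cox6b2 have no interval.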
